A study of Mus musculus with 4 samples.

Results

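The spots described here are those of mouse olfactory bulb sections that were richest in 5 marker transcripts of olfactory ensheathing glia. Each spot is a barcoded patch of a Visium slide that captures the polyadenylated RNA of the tissue above it, and it can hold several cells of different types. A spot was scored by the unique molecular identifiers (UMIs, each a captured molecule) of Fabp7, Npy, Frzb, Prss56 and Mybpc1, summed and divided by all its UMIs. In each library the top 10% of spots with at least 500 UMIs were taken, which gave 166, 71, 129 and 94 marker-rich spots in libraries 1 to 4. Together these are 460 of 4616 kept spots, and the other 4156 spots are the reference within their own library. The score chose the spots, so the levels of the 5 markers are a description. The name of the cell type was set beside genes that the score did not use. Those genes were listed with earlier results of these data known, so they are not an independent check of the name.

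The study set the bulb of a mutant mouse beside that of a control mouse. In the mutant, blockade of VEGF is labelled as given at E13.5 of embryonic life, by a transgenic soluble VEGFR1 expressed under the camk2a-tTa driver, which is tetracycline regulated and brain specific. The control mouse is labelled only as control, and its alleles were not stated. Both mice were killed at 5 months, and coronal sections of 10 micrometers of fresh-frozen bulb were laid on 2 capture areas per mouse, with 2 sections on each mutant area and 2 and 1 sections on the control areas. Each condition is thus 1 animal. The spots carry library numbers 1 to 4 that match no label, so no library was assigned to a mouse and no mutant value was set against a control value. Every value is given per library, without a mean or a test, because spots of 1 section are not replicates.

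Ensheathing glia are the glial cells of the olfactory nerve. They wrap bundles of unmyelinated axons of olfactory sensory neurons from the nasal mucosa to the outer layer of the bulb, where these axons are renewed throughout life. They derive from the neural crest, share the transcription factor Sox10 with Schwann cells, and clear debris of dying axons. The nerve layer lies just under the pia and outside the glomeruli, so a spot there can also take in axons, meninges, vessels and juxtaglomerular neurons.

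Marker-rich spots held 5002, 6068, 9098 and 8794 UMIs per spot (median) in libraries 1 to 4, against 8451, 7489.5, 9035 and 10023 in the other spots. Mitochondrial transcripts made up 10.7, 10.5, 6.81 and 7.16% of the UMIs of marker-rich spots and 8.797, 9.46, 7.39 and 7.48% of those of the other spots. The summed depth of the marker-rich spots was 937689, 437106, 1143586 and 852111 UMIs, and that of the other spots 12367284, 4786784, 11390105 and 8681841 UMIs. Levels are UMIs per 1000000 UMIs (CPM) of these sums, and 3 UMIs correspond to 3.199, 6.86, 2.62 and 3.52 CPM in marker-rich spots. Intervals are exact 95% intervals for counting error and leave out differences between animals or sections. A level in a spot is a share of its RNA, so that fewer cells of a type and less RNA per cell cannot be told apart. The 4616 kept spots carry 2768 distinct barcodes, of which 1408 occur in 2 or more libraries, so a barcode was read only together with its library number.

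The weakest marker-rich spot of each library scored 33.2, 27.4, 17.5 and 18.3 marker UMIs per 10000 in libraries 1 to 4, against 32.9, 26.9, 17.2 and 18.2 for the strongest spot left outside. The median score was 45.7, 39.99, 23.9 and 24.7 per 10000 in marker-rich spots and 4.54, 3.797, 3.54 and 3.296 in the other spots. The boundary is therefore a line drawn through a continuous range, placed higher in libraries 1 and 2 than in libraries 3 and 4.

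Fabp7 (ENSMUSG00000019874), which encodes the brain fatty acid binding protein of immature and ensheathing glia, was measured at 3009.5, 2267, 1193 and 1448 CPM in the marker-rich spots of libraries 1 to 4, against 464, 391, 200.1 and 219 CPM in the other spots. Npy (ENSMUSG00000029819), the neuropeptide Y gene, stood at 1384, 1391, 1118 and 1030.4 CPM in marker-rich spots, against 178, 171, 215 and 202 CPM in other spots. These 2 genes carried the score. Fabp7 gave 61.5, 55.5, 45.9 and 52.8% of the marker UMIs in libraries 1 to 4 and Npy 28.3, 34.1, 43.03 and 37.5%.

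Frzb (ENSMUSG00000027004), which encodes a secreted antagonist of Wnt ligands, had 358, 323, 242 and 230.02 CPM in the marker-rich spots of libraries 1 to 4, against 55.95, 57.2, 42.9 and 44.0 CPM in the other spots. Prss56 (ENSMUSG00000036480), a serine protease gene, had 91.7, 75.5, 38.5 and 30.5 CPM in marker-rich spots, against 8.81, 14.6, 7.64 and 9.56 CPM in other spots. Mybpc1 (ENSMUSG00000020061), a myosin-binding protein gene, had 47.99, 25.2, 6.12 and 5.87 CPM in marker-rich spots, against 4.37, 3.55, 2.11 and 1.96 CPM in other spots. The last of these rested on 45, 11, 7 and 5 UMIs in the marker-rich spots of libraries 1 to 4, and its ratio in library 4 could not be told from 1, at 2.997 (95% interval 0.864 to 8.46). All 5 markers were highest in the marker-rich spots of library 1 or 2. After thinning to 2000 UMIs per spot, Frzb was seen in 49.1, 57.4, 40.8 and 32.97% of marker-rich spots, against 10.9, 11.1, 6.997 and 9.38% of the other spots, and without thinning in 78.3, 81.7, 76.7 and 78.7%, against 31.1, 28.9, 29.7 and 30.6%.

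**Figure D1:**
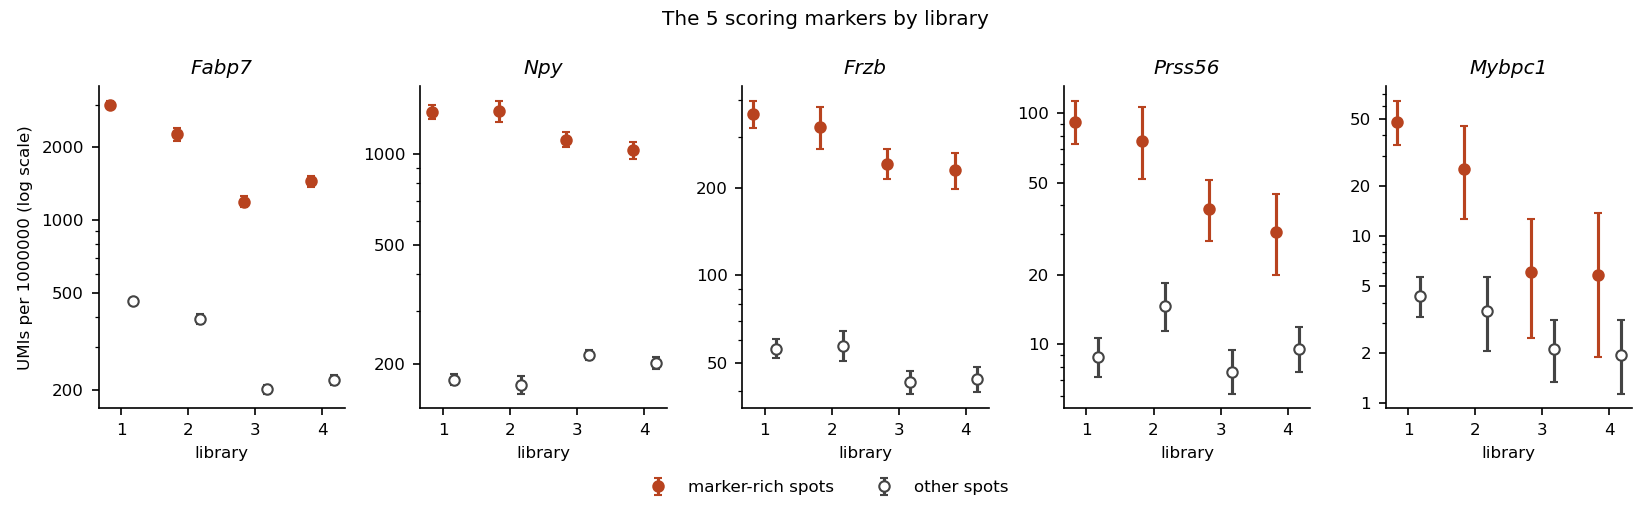
Levels of the 5 scoring markers in UMIs per 1000000 (log axis) for each library, with filled points for marker-rich spots, open points for the other spots and bars for exact 95% counting intervals. The filled point lies above the open one for every marker and library, as the rule requires for their sum, and the intervals of Mybpc1 overlap in libraries 3 and 4.

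Ensheathing glia genes that the score did not use were higher in the marker-rich spots of every library. Of the list of 15 such genes, 11 of 15, 12 of 14, 12 of 15 and 12 of 15 genes with at least 20 UMIs were over 2-fold higher in libraries 1 to 4. The median log2 ratio of the list was 1.82, 1.76, 2.14 and 2.14, while that of all 8227 genes with at least 100 UMIs in each library was -0.18, -0.16, -0.14 and -0.17. Of these 8227 genes, 3.9%, 3.65%, 3.11% and 3.79% were over 2-fold higher in the marker-rich spots of libraries 1 to 4, and 1.6% in all 4. Only 8 of the 15 list genes reached 100 UMIs in each library, and 3 of those 8, namely Sox10, Matn4 and Apod, were over 2-fold higher in all 4. Over these 8 genes, held to the same minimum as the 8227, the list median was lower, at 1.41, 1.44, 1.32 and 1.37.

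Sox10 (ENSMUSG00000033006), the neural crest transcription factor of peripheral glia, was measured at 121, 108, 207 and 197 CPM in the marker-rich spots of libraries 1 to 4, against 24.9, 26.5, 44.1 and 44.7 CPM in the other spots. Its ratio was smallest at 4.05 (95% interval 2.84 to 5.71) in library 2. Erbb3, the neuregulin receptor on which neural crest glia depend, had 59.7, 57.2, 55.1 and 70.4 CPM in marker-rich spots, against 8.25, 8.36, 10.4 and 10.8 CPM in other spots. Foxd3, another neural crest transcription factor, had 59.7, 66.3, 119 and 107 CPM in marker-rich spots, against 6.95, 5.22, 16.9 and 10.4 CPM in other spots, the widest ratio being 12.7 (95% interval 7.18 to 22.6) in library 2. For each of these 3 genes the marker-rich value of every library was above the highest value of the other spots of any library.

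Apod (ENSMUSG00000022548), a lipid-carrying lipocalin and the gene with the most UMIs of this list, stood at 3861, 3857, 5151 and 5520.4 CPM in the marker-rich spots of libraries 1 to 4, against 475, 518, 1167 and 983 CPM in the other spots. Its median share in a marker-rich spot was 31.4, 32.96, 49.3 and 53.4 UMIs per 10000, and 99.4%, 100%, 93.02% and 92.6% of marker-rich spots of libraries 1 to 4 exceeded the median of the other spots of their library. Cryab, a small heat shock protein gene, had ratios of 1.93, 2.03, 3.02 and 2.96, and Lgi4, a secreted glial protein gene needed for peripheral nerve myelination, 3.67, 2.66, 4.16 and 3.99. The adhesion gene Cdh19 had ratios of 2.02, 2.29, 4.57 and 4.31, and Mia 3.55, 4.11, 3.82 and 4.48. The calcium-binding protein gene S100b was closer to even, with ratios of 1.31, 1.08, 1.64 and 1.499, as was the endothelin receptor gene Ednrb with 1.38, 1.13, 1.07 and 1.33. The gene Islr had ratios of 2.37, 2.86, 1.96 and 2.25. Ngfr, the p75 neurotrophin receptor of ensheathing glia in other settings, was counted in 5, 4, 17 and 8 UMIs of marker-rich spots and stayed under 15 CPM.

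The list was not spread evenly over the marker-rich spots. When spots were ranked by the summed share of these 15 genes, 60.8%, 66.2%, 54.3% and 50% of the marker-rich spots of libraries 1 to 4 were also in the top 10% of their library. By the score of the 16 sensory axon genes, 60.2%, 57.7%, 37.2% and 31.9% were in the top 10%. Of the marker-rich spots, 11.4%, 12.7%, 30.2% and 28.7% were in the top 10% for none of 4 lists (ensheathing glia, sensory axon, olfactory mucosa and leptomeninges). Most but not all of the spots in libraries 1 to 3, and 47 of 94 in library 4, were thus also rich in the glial list. Such overlap was not particular to that list. For lipid-handling genes, 72.9%, 70.4%, 51.9% and 60.6% of the marker-rich spots of libraries 1 to 4 were in the top 10%. For genes of disease-associated phagocytes the shares were 68.1%, 62.0%, 47.3% and 56.4%. Over all kept spots, Apoe alone gave 85.2% of the UMIs of the phagocyte list and 47.1% of those of the lipid list. These overlaps are thus not separate from each other, and the phagocyte share is mostly a ranking by Apoe.

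The genes over 2-fold higher in the marker-rich spots of all 4 libraries numbered 132, 4 scoring markers included. The count was 55 when Fabp7 was left out of the score and 288 without library 2, the shallowest, when more genes passed the minimum. Fbln2 (ENSMUSG00000064080), which encodes the matrix glycoprotein fibulin-2, had the highest smallest ratio over the 4 libraries of the ranked genes outside the score, at 193, 153, 226 and 198 CPM in the marker-rich spots of libraries 1 to 4, against 19.3, 21.3, 37.7 and 29.6 CPM in the other spots. Its ratio was smallest at 5.99 (95% interval 5.11 to 7.01) in library 3. Among other matrix genes, Matn4, a matrilin gene, had 124, 77.8, 157 and 142 CPM in marker-rich spots, against 16.4, 14.8, 28.9 and 28.9 CPM in other spots. The proteoglycan gene Bgn (biglycan) had ratios of 9.72, 7.65, 3.81 and 6.14 and Dcn (decorin), which meningeal fibroblasts also express, 11.03, 8.76, 4.06 and 6.75. The ratios of Bgn and Dcn were highest in library 1, while their levels in marker-rich spots were highest in library 4, at 304 and 573 CPM.

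Aspa, which encodes aspartoacylase, the enzyme that splits N-acetylaspartate to yield acetate, had 90.6, 84.6, 151 and 134 CPM in the marker-rich spots of libraries 1 to 4, against 15.5, 16.5, 27.4 and 25.9 CPM in the other spots. Fmo1, a flavin monooxygenase gene, had 144, 137, 94.4 and 101 CPM in marker-rich spots, against 17.6, 18.2, 22.2 and 20.96 CPM in other spots. Levels of both enzyme transcripts differed little between the libraries' marker-rich spots, with the highest at most 1.79-fold above the lowest.

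Aqp1 (ENSMUSG00000004655), a water channel gene, stood at 61.9, 112, 529.9 and 342 CPM in the marker-rich spots of libraries 1 to 4, against 10.2, 15.3, 106 and 67.6 CPM in the other spots. The level was several times higher in libraries 3 and 4, in both kinds of spot, while the ratio between the spots stayed at 6.07, 7.35, 4.99 and 5.05. Nr2f2, an orphan nuclear receptor gene, had 159, 135, 233 and 199.5 CPM in marker-rich spots, against 21.4, 17.8, 43.5 and 41.4 CPM in other spots. Agt, which encodes angiotensinogen, the precursor of angiotensin, had 131, 103, 51.6 and 46.9 CPM in marker-rich spots, against 16.98, 16.3, 10.9 and 9.21 CPM in other spots.

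Apcdd1, a membrane inhibitor of Wnt signalling, had 132, 135, 256 and 259 CPM in the marker-rich spots of libraries 1 to 4, against 25.2, 22.4, 55.2 and 50.1 CPM in the other spots. Kctd12, which encodes an auxiliary subunit of GABA-B receptors, had 664, 499, 529 and 454 CPM in marker-rich spots, against 86.4, 84.6, 119 and 113 CPM in other spots. Mest, an imprinted gene, had 123, 133, 324 and 388 CPM in marker-rich spots, against 29.03, 26.3, 55.9 and 52.1 CPM in other spots. The actin-severing gelsolin gene Gsn had ratios of 5.82, 6.599, 3.805 and 4.13, Tspan15 (a tetraspanin) 4.15, 5.14, 4.80 and 4.17, Vstm4 9.35, 7.18, 4.32 and 5.604 and Tax1bp3 3.78, 4.99, 3.96 and 4.14.

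The leading genes were searched for the letters ACAAAG and ACAATG, which SOX proteins can bind, on both strands (CTTTGT and CATTGT on the printed strand), because Sox10 was itself among them. RefSeq promoter windows on GRCm38.p6, 250 bases before the start of a gene, were on hand for 20 of the 25 scoring and leading genes. The letters occurred in 2 of these 20 windows (10%), against 25.5% of the windows of all 27025 genes. These are the 2 windows, shown because they hold the match, which is in capitals.
Apod promoter, chr16:31314809-31315058, minus strand: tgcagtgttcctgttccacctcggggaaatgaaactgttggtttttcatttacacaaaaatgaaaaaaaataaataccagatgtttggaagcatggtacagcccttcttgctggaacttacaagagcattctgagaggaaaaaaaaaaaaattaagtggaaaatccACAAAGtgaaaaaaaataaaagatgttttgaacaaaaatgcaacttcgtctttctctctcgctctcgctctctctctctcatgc
Tspan15 promoter, chr10:62231219-62231468, minus strand: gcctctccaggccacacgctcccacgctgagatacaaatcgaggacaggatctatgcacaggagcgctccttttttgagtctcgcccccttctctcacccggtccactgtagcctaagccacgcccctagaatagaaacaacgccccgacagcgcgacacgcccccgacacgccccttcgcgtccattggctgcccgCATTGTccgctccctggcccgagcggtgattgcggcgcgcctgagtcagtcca
The match is a description of the letters, and its absence elsewhere concerns these windows alone.

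Axon transcripts of olfactory sensory neurons were higher in marker-rich spots by list median in libraries 1 to 3 and not in library 4. The median log2 ratio of the list was 2.24, 2.08, 1.21 and -0.19 in libraries 1 to 4, with 14 of 16, 10 of 13, 8 of 15 and 2 of 15 genes over 2-fold higher. Over the 8 axon genes with at least 100 UMIs in each library it was 1.92, 1.56, 0.23 and -0.35. S100a5 (ENSMUSG00000001023), a calcium-binding protein gene of active sensory neurons, was measured at 3527, 2615, 519 and 856 CPM in the marker-rich spots of libraries 1 to 4, against 611, 462, 119 and 230.4 CPM in the other spots. Omp, which encodes the olfactory marker protein of mature sensory neurons, had 563, 379.8, 90.1 and 102 CPM in marker-rich spots, against 81.5, 54.9, 28.97 and 61.4 CPM in other spots. Both genes were higher in the marker-rich spots of every library, and their levels there were lowest in library 3.

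Gng13, a G protein subunit gene of olfactory transduction, had 1451, 1050.1, 488 and 628 CPM in the marker-rich spots of libraries 1 to 4, against 323, 249, 296 and 380.3 CPM in the other spots. Its ratio was near 4 in libraries 1 and 2 and 1.65 (95% interval 1.504 to 1.803) in library 3. Components of the odorant transduction cascade split between libraries. Gnal, the olfactory G protein alpha subunit gene, had ratios of 3.21, 2.19, 0.707 and 0.703 and Adcy3, the olfactory adenylyl cyclase gene, 2.36, 1.698, 0.830 and 0.599. The cyclic nucleotide-gated channel gene Cnga2 had ratios of 9.102, 10.95, 2.37 and 1.46, on 49, 12, 5 and 10 UMIs. The chaperone gene Ric8b had ratios of 1.89, 1.58, 0.7605 and 0.536, and Stoml3 7.28, 4.01, 2.58 and 0.876. Gap43, a growth cone protein gene of regrowing axons that other bulb neurons also express, was lower in the marker-rich spots of all 4 libraries, with 86.4, 101, 101 and 93.9 CPM in marker-rich spots, against 166, 150.4, 192 and 213 CPM in other spots.

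Transcripts of nasal mucosa, which is tissue outside the bulb, were also higher in these spots by list median. The list of 14 mucosa genes had a median log2 ratio of 2.96, 3.01, 1.05 and 0.73, and its summed level was 2663, 1079.8, 2170.4 and 3410.3 CPM in marker-rich spots, against 857, 144, 1032 and 1978 CPM in other spots. Scgb1c1, a secretoglobin gene of the mucosa, stood at 729, 245, 1131 and 1824 CPM in marker-rich spots, against 106, 45.8, 523 and 999.8 CPM in other spots. Cyp2g1, an olfactory cytochrome P450 gene, had 255, 165, 49.8 and 80.98 CPM in marker-rich spots, against 38.1, 19.8, 27.7 and 84.9 CPM in other spots. Of the marker-rich spots, 43.98%, 47.9%, 33.3% and 24.5% were in the top 10% for this list. The part of mucosa in the axon values was not tested. With the spots in the top 10% for mucosa left out, the smallest list median of ensheathing glia genes was 1.27 and that of axon genes 0.28.

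Among growth factor genes with at least 100 UMIs in each library, those of pleiotrophin and midkine were over 2-fold higher in all 4. Ptn (ENSMUSG00000029838), which encodes the heparin-binding neurite growth factor pleiotrophin, was measured at 2399.5, 2064, 1399 and 1531 CPM in the marker-rich spots of libraries 1 to 4, against 510.5, 507, 455 and 493 CPM in the other spots. Mdk, the gene of the related midkine, had 181, 167, 162 and 183 CPM in marker-rich spots, against 48.4, 48.5, 73.9 and 64.7 CPM in other spots. Of the 16 growth factor genes, 3 of 15, 3 of 14, 5 of 15 and 6 of 14 were over 2-fold higher, and the list median was 0.01, 0.23, 0.55 and 0.699 in libraries 1 to 4, and 8 reached the 100 UMIs. Cntf, the ciliary neurotrophic factor gene of Schwann cells and astrocytes, had ratios of 5.13, 1.83, 9.45 and 8.66 on 7, 2, 37 and 34 UMIs in marker-rich spots. Igf1 had ratios of 1.81, 1.92, 2.04 and 3.11. The neurotrophin gene Bdnf stayed under 12 CPM in marker-rich spots of all 4 libraries. Gdnf was not detected in marker-rich spots, with 0 UMIs in each library, which allows up to 2.62 to 6.86 CPM.

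Vegfa (ENSMUSG00000023951), the ligand that the study's transgene blocks, was even or slightly different between the kinds of spot in libraries 1 and 2 and higher in marker-rich spots of libraries 3 and 4. It stood at 47.99, 64.1, 312 and 343 CPM in the marker-rich spots of libraries 1 to 4, against 53.7, 52.9, 176 and 145 CPM in the other spots. Its ratio was 0.894 (95% interval 0.646 to 1.21) in library 1 and 2.36 (95% interval 2.08 to 2.69) in library 4. Flt1, which encodes VEGFR1, had 58.7, 48.04, 26.2 and 23.5 CPM in marker-rich spots, against 36.3, 33.4, 24.3 and 25.5 CPM in other spots. It was not stated whether transgene reads add to the Flt1 count.

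Adhesion and guidance genes were mixed, with a list median of -0.26, -0.26, -0.22 and -0.33. Ncam1, the neural cell adhesion molecule of ensheathing glia and their axons, was measured at 509, 464, 449 and 465 CPM in the marker-rich spots of libraries 1 to 4, against 201, 218, 233 and 228 CPM in the other spots. Chl1, a close homolog of L1, had ratios of 3.37, 2.19, 1.78 and 1.86, while L1cam itself had 0.552, 0.832, 0.562 and 0.605. Sema3a, a repellent of growing axons, was lower in the marker-rich spots of each library, with 15.997, 4.58, 18.4 and 11.7 CPM in marker-rich spots, against 30.4, 27.2, 23.6 and 23.5 CPM in other spots. Its 4 ratios rested on 15, 2, 21 and 10 UMIs in marker-rich spots.

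Basement membrane and matrix genes were higher by list median in all 4 libraries. The list of 17 had medians of 1.61, 1.52, 1.59 and 1.46, with 12 of 17, 9 of 16, 12 of 17 and 14 of 17 genes over 2-fold higher. Over the 8 genes with at least 100 UMIs in each library the medians were 1.31, 0.86, 1.40 and 1.53. The nidogen gene Nid1 had 53.3, 41.2, 55.1 and 64.5 CPM in marker-rich spots, against 9.38, 7.73, 14.6 and 13.2 CPM in other spots, and its relative Nid2 had ratios of 5.91, 8.07, 5.89 and 6.97. The laminin genes Lamc1 and Lama4 had ratios of 4.54, 3.74, 3.51 and 4.68 and of 3.64, 3.65, 3.76 and 4.297. Perlecan (Hspg2) had ratios of 6.05, 7.96, 3.72 and 5.16 and the collagen IV gene Col4a1 2.47, 1.93, 3.01 and 3.04. Sparc had 485, 442, 1028 and 1019 CPM in marker-rich spots, against 249, 259.7, 445 and 371 CPM in other spots. The 10 Wnt modulator genes as a list had medians of 0.595, 0.698, 0.13 and 0.35, close to those of all genes in library 3.

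Lipid-handling genes were higher, with list medians of 0.77, 0.67, 1.405 and 1.71. Apoe, which encodes the main lipid carrier of the brain, stood at 8309, 7335, 13229 and 15695 CPM in marker-rich spots, against 2997, 2789, 4997 and 4436 CPM in other spots. Scd1, a fatty acid desaturase gene, had 435, 375, 379 and 426 CPM in marker-rich spots, against 123, 121, 121 and 119 CPM in other spots. Fabp3, a relative of the scoring marker Fabp7, was the reverse, at 119, 114, 97.9 and 97.4 CPM in marker-rich spots, against 249.9, 213, 207 and 221 CPM in other spots. Among receptors for the uptake of debris, Megf10 had ratios of 2.81, 2.85, 2.34 and 2.67, Axl 1.76, 2.42, 2.18 and 2.61 and Mertk 1.45, 0.742, 0.927 and 0.953, with list medians of 0.54, 0.701, 1.12 and 1.38. Metal and redox genes had medians of 0.55, 0.54, 0.67 and 0.78, with Prdx6 at ratios of 1.83, 1.65, 2.03 and 2.01.

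Reactive glia transcripts were higher in marker-rich than in other spots of every library, and their levels in both differed severalfold between libraries. The list median was 1.88, 1.78, 1.48 and 1.85 log2 units in libraries 1 to 4, on 6, 4, 10 and 10 genes with at least 20 UMIs. Serpina3n (ENSMUSG00000021091), a serine protease inhibitor gene of reactive astrocytes, was measured at 157, 156, 1837 and 1391 CPM in the marker-rich spots of libraries 1 to 4, against 19.5, 19.8, 436 and 357 CPM in the other spots. Vim, an intermediate filament gene that ensheathing glia also express, had 192, 238, 1169 and 1063 CPM in marker-rich spots, against 53.04, 56.4, 409 and 305 CPM in other spots. In both genes the marker-rich spots of libraries 1 and 2 lay below the other spots of libraries 3 and 4.

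Gfap, the filament gene of astrocytes and ensheathing glia, had 139, 135, 594 and 769 CPM in marker-rich spots, against 103, 78.97, 337 and 374 CPM in other spots. Lcn2, a siderophore-binding lipocalin gene, had 3.199, 2.29, 965 and 944 CPM in marker-rich spots, against 0.323, 0.627, 465 and 315 CPM in other spots, and its values in libraries 1 and 2 rested on 3 and 1 UMIs in marker-rich spots. The complement gene C3 stood at 1.07, 0, 255 and 265 CPM in marker-rich spots, against 0.162, 0.627, 109 and 70.6 CPM in other spots. A2m, a protease inhibitor gene, had 7.47, 11.4, 289 and 255 CPM in marker-rich spots, against 5.42, 3.97, 74.01 and 50.9 CPM in other spots.

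Of single genes, Gpnmb and Spp1 of the disease-associated phagocyte list had the widest differences of ratio between libraries. The axon, mucosa, red blood cell and leptomeningeal lists had wider spans of the median than that list. The disease-associated phagocyte list had medians of 1.29, 0.51, 1.45 and 2.15, and its summed level is mostly Apoe. Spp1 (ENSMUSG00000029304), which encodes osteopontin, was lower in marker-rich spots of libraries 1 and 2 and higher in those of libraries 3 and 4, with 58.7, 54.9, 667 and 779 CPM in the marker-rich spots of libraries 1 to 4, against 149, 140.2, 297 and 189 CPM in the other spots. Its ratio was 0.392 (95% interval 0.249 to 0.588) in library 2 and 4.12 (95% interval 3.75 to 4.51) in library 4. Gpnmb, a glycoprotein gene of lipid-laden phagocytes, had 8.53, 22.9, 324 and 413 CPM in marker-rich spots, against 22.6, 20.7, 140.2 and 85.8 CPM in other spots. Lyz2, the lysozyme gene of myeloid cells, had 81.1, 84.6, 1447 and 1977 CPM in marker-rich spots, against 22.1, 22.8, 390.1 and 291 CPM in other spots, so that its ratio of 3.67, 3.72, 3.71 and 6.802 was above 3 in every library.

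General microglia genes had medians of 0.59, 0.72, 0.72 and 0.82. C1qa, a complement subunit gene, had ratios of 1.898, 1.66, 2.28 and 3.29, and Tmem119, a gene of resident microglia, 3.03, 2.796, 2.14 and 1.31. P2ry12, a receptor gene of resting microglia, stayed at ratios of 0.977, 0.819, 1.01 and 1.07. Interferon and MHC class I genes had medians of 1.46, 1.64, 1.18 and 1.23. Ifitm3, an interferon-induced membrane protein gene, stood at 198, 149, 754 and 722 CPM in marker-rich spots, against 34.04, 26.7, 216 and 167 CPM in other spots, and B2m, the light chain gene of MHC class I, at 344, 361, 748 and 586 CPM in marker-rich spots, against 117, 115, 316 and 230.5 CPM in other spots. The part of phagocytes in these values was not tested.

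Of the other cell types a spot can hold, astrocyte genes were slightly higher as a list. Of the 10 genes, 0 were over 2-fold higher in the marker-rich spots of all 4 libraries, against 1.6% of the 8227 genes. The astrocyte list had medians of 0.22, 0.33, 0.32 and 0.35, with the metabolic enzyme gene Aldoc at 1137, 1094, 1009.98 and 1116 CPM in marker-rich spots, against 978, 906, 935 and 996 CPM in other spots. Gja1, a gap junction gene shared with ensheathing glia, had ratios of 2.196, 2.0004, 1.94 and 1.65. Atp1b2 had ratios of 1.58, 1.63, 2.13 and 1.94, and Aqp4 1.55, 1.65, 1.76 and 1.70. The genes that were lower were the glutamate transporter gene Slc1a2, with ratios of 0.794, 0.617, 0.791 and 0.637, and Slc6a11, with 0.861, 0.826, 0.682 and 0.764. The glial progenitor list had medians of 0.75, 1.01, 0.65 and 0.46.

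Oligodendrocyte transcripts were not enriched, and their list medians were 0.12, -0.46, -0.47 and -0.75. The myelin gene Mobp had 106, 101, 94.4 and 95.1 CPM in marker-rich spots, against 195, 203, 204 and 237 CPM in other spots, lower in marker-rich spots of all 4 libraries. The exception among myelin genes was Mal, with ratios of 2.05, 1.89, 1.94 and 1.89. Genes of oligodendrocyte precursors had list medians of -0.17, 0.51, -0.15 and -0.43. Of the Schwann cell myelin genes, Pmp22 had 81.1, 77.8, 306 and 280.5 CPM in marker-rich spots, against 27.5, 25.7, 73.2 and 56.4 CPM in other spots. Pmp2 had 0 UMIs in both kinds of spot of all 4 libraries, and Ncmap and Prx had at most 1 UMI in the marker-rich spots of any library.

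Leptomeningeal genes were high in the same spots, most of all in libraries 1 and 2. The list of 12 had medians of 2.603, 2.49, 0.93 and 1.29, with 11 of 12, 10 of 11, 5 of 12 and 10 of 12 genes over 2-fold higher, and 51.8%, 49.3%, 20.9% and 18.1% of the marker-rich spots were in the top 10% for it. Ptgds, the prostaglandin D synthase gene that gives most UMIs of this list, stood at 14784, 15815, 12134 and 9255 CPM in marker-rich spots, against 2192, 3238, 7168 and 5218 CPM in other spots. Slc6a13, a GABA transporter gene of the meninges, had 146, 167, 111 and 99.8 CPM in marker-rich spots, against 18.1, 28.2, 45.7 and 41.2 CPM in other spots. Without the spots in the top 10% for leptomeninges, 77 genes were over 2-fold higher in all 4 libraries, of 7844 that passed the minimum, and the smallest ensheathing glia median was 1.56.

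Vascular and blood gene lists were also higher in marker-rich spots. Endothelial genes had medians of 1.12, 1.16, 0.51 and 0.31, mural genes 1.57, 1.41, 0.52 and 1.04 and red blood cell genes 1.86, 2.36, 0.304 and 0.52. Cldn5, a tight junction gene of endothelium, had ratios of 3.68, 3.74, 4.12 and 4.42, and Vtn, a pericyte gene, 4.56, 4.09, 2.35 and 2.75. Each was the only gene of its list over 2-fold higher in all 4 libraries, among genes with at least 100 UMIs in each. There were 6 such endothelial and 3 such mural genes. The globin gene Hbb-bs had 1350.1, 1274, 1015 and 1035 CPM in marker-rich spots, against 382, 254, 725 and 660.3 CPM in other spots. The part of meninges, vessels and blood in the values of the leading genes was not tested.

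Transcripts of the bulb's output neurons and granule cells were lower in marker-rich spots. Mitral and tufted cell genes had medians of -1.41, -1.16, -1.08 and -0.87, with 8 of 9, 6 of 9, 5 of 9 and 4 of 9 genes over 2-fold lower in libraries 1 to 4. Of the 8227 genes, 5.91%, 6.73%, 3.96% and 6.9% were over 2-fold lower in libraries 1 to 4, and 39 genes (0.474%) in all 4. The last count was 1 when Fabp7 was left out of the score, 90 with spots weighted alike, and 86, 90 and 71 without library 2, 3 or 4. Slc17a7, the vesicular glutamate transporter gene of mitral cells, had 278, 302, 349.8 and 334 CPM in the marker-rich spots of libraries 1 to 4, against 966, 859, 788 and 795 CPM in the other spots. Tbx21, a transcription factor gene of these neurons, had 9.598, 20.6, 25.4 and 21.1 CPM in marker-rich spots, against 60.2, 46.2, 59.3 and 46.3 CPM in other spots. Granule cell genes had medians of -0.67, -0.796, -0.63 and -0.32, and Pcp4 stood at 242, 247, 353 and 435 CPM in marker-rich spots, against 866, 951, 877 and 920.4 CPM in other spots. In libraries 1 and 2, 0 of 166 and 0 of 71 marker-rich spots were in the top 10% for the granule list, which allows up to 2.198% and 5.06% (exact binomial).

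The 10 genes with the most consistent deficit included Rbfox3, which encodes the neuronal nuclear protein NeuN, with 22.4, 43.5, 48.97 and 39.9 CPM in marker-rich spots, against 76.7, 101, 123 and 129.6 CPM in other spots. Syn1, the synapsin gene of presynaptic vesicles, had 202, 189.9, 233 and 212 CPM in marker-rich spots, against 473, 466, 522 and 518 CPM in other spots. Lrrtm1, a synaptic adhesion gene, had ratios of 0.198, 0.356, 0.429 and 0.419. Cacng3, which encodes an auxiliary subunit of AMPA receptors, had 0.422, 0.256, 0.411 and 0.434. Arpp21 had ratios of 0.287, 0.343, 0.4398 and 0.345, and the Nogo receptor gene Rtn4r 0.382, 0.412, 0.429 and 0.335. Masp1, a complement protease gene, had ratios of 0.178, 0.102, 0.3798 and 0.427, on 4, 1, 9 and 7 UMIs in marker-rich spots.

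Juxtaglomerular neurons, the layer next to the nerve layer, were near even as a list, with medians of 0.101, 0.47, -0.42 and -0.01. Trh, the thyrotropin-releasing hormone gene of this layer, was higher in marker-rich spots of all 4 libraries, with 403, 478, 97.1 and 108 CPM in marker-rich spots, against 247, 238, 46.4 and 50.6 CPM in other spots. Th, the dopamine synthesis gene of periglomerular cells, had ratios of 1.12, 1.498, 1.21 and 1.51. Doc2g had ratios of 0.325, 0.379, 0.602 and 0.621. Neuroblast genes had medians of -0.36, -0.299, -0.37 and -0.32 and forebrain excitatory neuron genes -0.199, -1.06, -1.32 and -1.82. Nrgn, the neurogranin gene of forebrain neurons, stood at 42.7, 75.5, 477 and 317 CPM in marker-rich spots, against 117, 158, 1253 and 1329 CPM in other spots. The proliferation list had 2 genes with at least 20 UMIs in libraries 1 and 2, too few for a median, and medians of 0.28 and 0.55 in libraries 3 and 4.

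**Figure D2:**
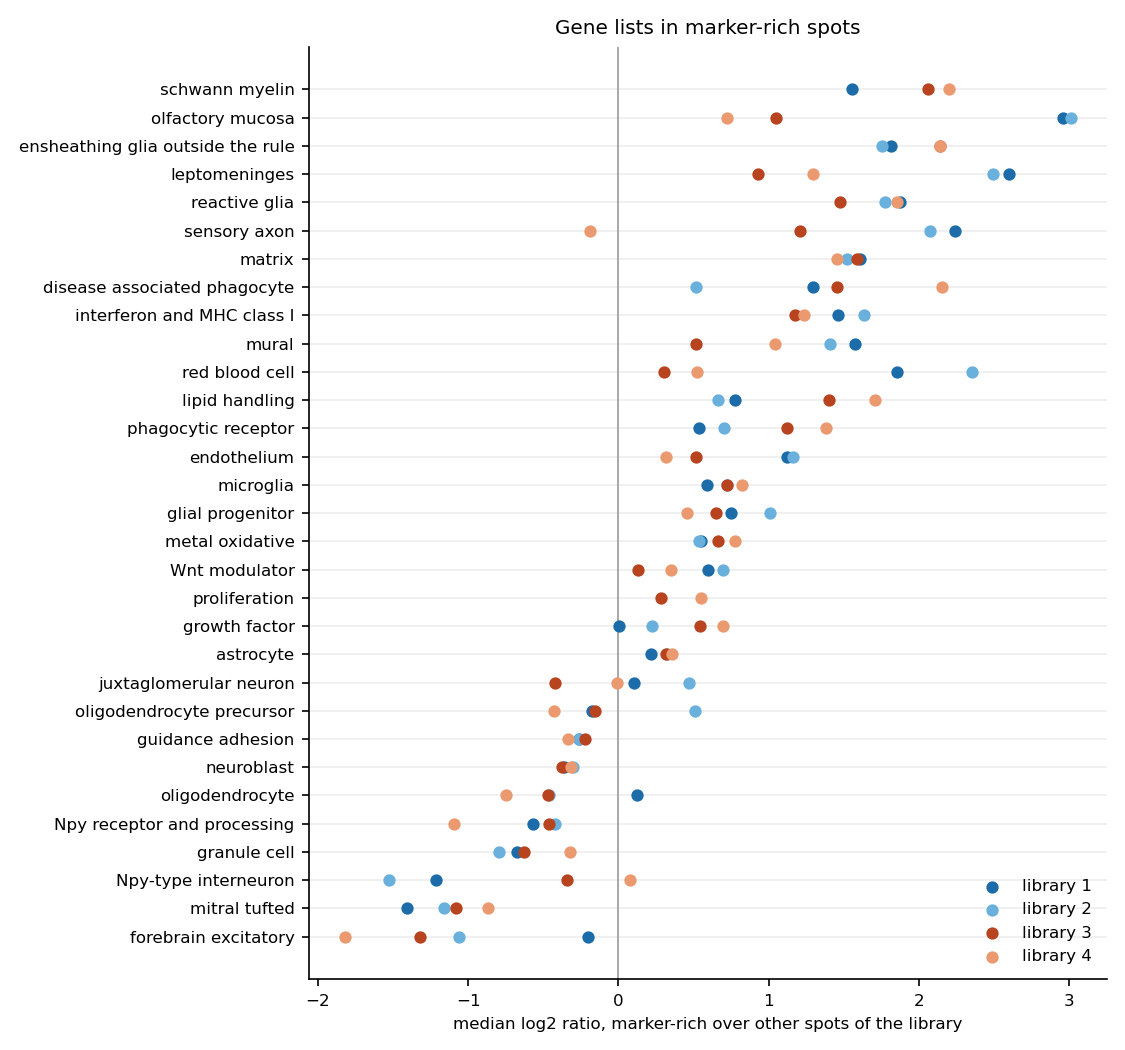
Median log2 ratio of each gene list, marker-rich over other spots of the same library, with 1 point per library for lists with at least 3 genes of at least 20 UMIs. Ensheathing glia, leptomeninges, reactive glia and matrix lists lie to the right of 0 in all 4 libraries, the sensory axon list does so in libraries 1 to 3, and the mitral and tufted list lies to the left in all 4.

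Npy is also made by interneurons, and the share of marker-rich spots chosen mainly by Npy differed between libraries. Npy gave the majority of the marker UMIs in 7, 5, 34 and 18 marker-rich spots of libraries 1 to 4, which are 4.22, 7.04, 26.4 and 19.1% of them. This division uses values of the score and was made after they were seen, so the values below are a description. In library 3 these 34 spots held the summed ensheathing glia genes outside the score at 5205 CPM, against 10200.4 CPM in the 56 spots in which Fabp7 gave the majority. In library 4 the 18 Npy spots held 4253 CPM, against 9659 CPM in 58 Fabp7 spots. In libraries 1 and 2 the 7 and 5 Npy spots held 3952 and 6357 CPM, against 6516 and 6131 CPM in Fabp7 spots. The Npy spots thus held less of the glial list in libraries 1, 3 and 4 and not in library 2.

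Sst, the somatostatin gene that marks interneurons which often contain neuropeptide Y, ran the other way. It stood at 423 CPM in Npy spots and 23.9 CPM in Fabp7 spots of library 3, and at 1239 and 38.99 CPM in those of library 4. In libraries 1 and 2 the Npy spots held 1 and 0 Sst UMIs. Nrgn was likewise at 1037 CPM in Npy spots and 254 CPM in Fabp7 spots of library 3, and at 947 and 152 CPM in library 4. In these Npy spots of libraries 3 and 4, neuron transcripts were thus higher and the glial list lower than in Fabp7 spots.

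Npy spots were nevertheless not empty of glial transcripts. Sox10 stood at 144 and 119 CPM in Npy spots of libraries 3 and 4, above the 44.1 and 44.7 CPM of spots outside the marker-rich set. Without the Npy spots, 148 genes were over 2-fold higher and 88 over 2-fold lower in all 4 libraries, against 132 and 39 with them. Across the marker-rich spots, thinned to 2000 UMIs, Spearman's rho of Fabp7 and Npy was -0.12, -0.096, -0.49 and -0.41 in libraries 1 to 4 over 163, 68, 125 and 91 spots. Choosing spots by the sum of both favours such a negative value, and the points share a library. Of the Npy pathway, the receptor gene Npy1r stayed under 13 CPM in marker-rich spots and Npy2r at 0 UMIs, while the peptide-processing gene Cpe had 1667, 1686, 1636 and 1617 CPM in marker-rich spots, against 2468, 2255, 2249 and 2426 CPM in other spots. The list of Npy receptors and processing enzymes had medians of -0.57, -0.42, -0.46 and -1.09, and that of Npy-type interneurons -1.22, -1.53, -0.34 and 0.08.

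**Figure D3:**
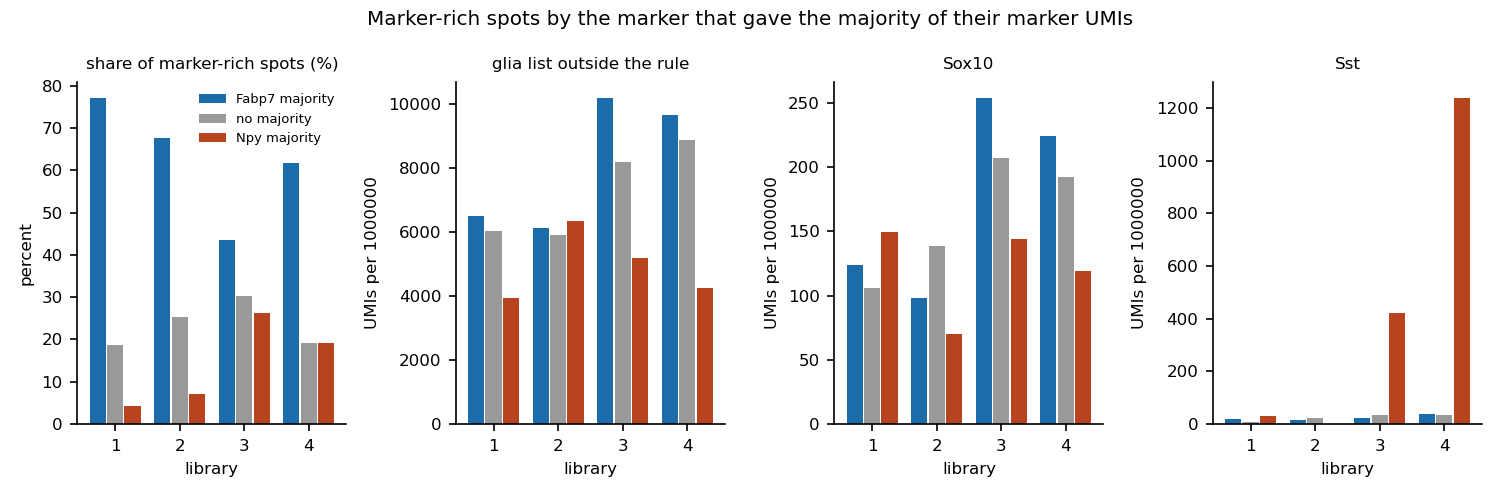
Marker-rich spots of each library divided by the marker that gave the majority of their marker UMIs, with bars for the share of spots (percent) and for the levels of the ensheathing glia list outside the score, Sox10 and Sst (UMIs per 1000000). Npy spots number 7, 5, 34 and 18 in libraries 1 to 4, and their Sst bars reach 423 and 1239 in libraries 3 and 4.

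Beyond the boundary the glial list fell over the first bins of the score. The other spots of each library were divided into 9 further bins by score. The ensheathing glia list summed to 6311, 6081, 8109.6 and 8434 CPM in the marker-rich spots, 4058, 3794, 5325 and 5475 CPM in the next bin and 1184, 1114, 1619 and 1905 CPM in the fifth. The bin just outside the boundary thus still held more than the middle of the range in each library. In bin 10, the lowest by score, the list stood at 1249.96, 1088, 1686 and 2557 CPM, above the lowest bin of each library. Mitral and tufted cell genes were highest in bin 7, 8 or 9, depending on the library, and granule cell genes in bin 10. The spots of bins 9 and 10 held few UMIs in libraries 1 and 2, with medians of 2381 and 1658 in library 1. Reactive glia genes fell along the score in all 4 libraries, to 189, 148, 1803 and 1530.2 CPM in the fifth bin, against 530.03, 551, 5461 and 4945 CPM in marker-rich spots.

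**Figure D4:**
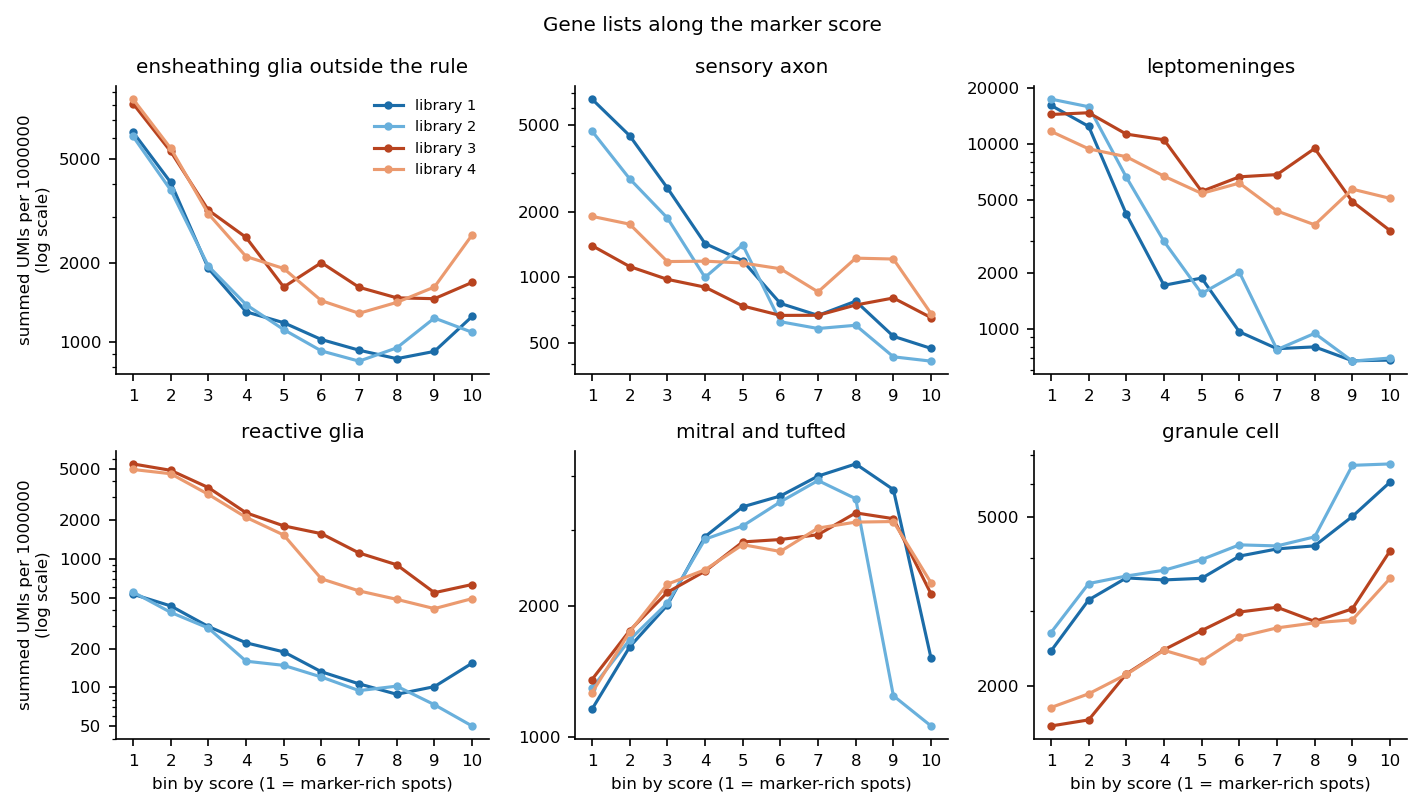
Summed level of 6 gene lists in UMIs per 1000000 (log axes) along 10 bins of spots by marker score, with bin 1 holding the marker-rich spots and 1 line per library. The ensheathing glia list is highest in bin 1 of every library, the sensory axon lines of libraries 1 and 2 fall more steeply than those of libraries 3 and 4, and the granule cell list is highest in bin 10.

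By number, the enriched genes overlapped most between libraries 1 and 2 and between libraries 3 and 4, with 226 and 210 shared. Of the genes over 2-fold higher in library 1, 70.4% were so in library 2, and the shared genes were 75.3% of those of library 2. For libraries 3 and 4 the 210 shared genes were 82.03% of those of library 3 and 67.3% of those of library 4. Between libraries 2 and 4 they were 58.7% and 56.4%, and between libraries 1 and 3 they were 56.1% and 70.3%. Genes over 2-fold lower did not pair in this way. Libraries 1 and 2 shared 200 of them, libraries 1 and 4 shared 181 and libraries 3 and 4 shared 168.

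Within the marker-rich spots alone, 970 of 6549 genes (14.8%) differed over 2-fold between their highest and lowest library, among genes with at least 100 UMIs in these spots and 3 in each library. The count was 510, 507, 410 and 529 without library 1, 2, 3 or 4. Gpnmb led them, 48.4-fold (95% interval 24.3 to 113) higher in library 4 than in library 1. A2m followed with 38.8-fold (95% interval 18.6 to 97.2), Lyz2 had 24.4-fold (95% interval 19.4 to 31.1) and Wfdc17, a small secreted protein gene of myeloid cells, 24.1-fold (95% interval 8.08 to 118). These 4 were highest in library 3 or 4, as were Spp1, Spidr, Sfrp5, Ccl6, Col3a1, Serpina3n, Rarres2 and Sst. Spidr, a gene of DNA repair, had 23.5, 11.4, 188 and 154 CPM in marker-rich spots, against 2.59, 2.51, 27.04 and 21.8 CPM in other spots. Sfrp5, another secreted Wnt antagonist gene, had 11.7, 9.15, 92.7 and 119.7 CPM in marker-rich spots, against 2.51, 2.298, 14.7 and 8.64 CPM in other spots. Both were also enriched in the marker-rich spots of each library.

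The 3 others of the 15 widest genes were highest in library 1 or 2. Wfdc18 had 124, 34.3, 4.37 and 22.3 CPM in the marker-rich spots of libraries 1 to 4, against 32.3, 7.103, 6.41 and 10.02 CPM in the other spots. Nppa, the natriuretic peptide gene, had 69.3, 133, 7.87 and 19.95 CPM in marker-rich spots, against 72.8, 58.3, 8.16 and 8.06 CPM in other spots, and Apold1, an endothelial early response gene, 100.2, 80.1, 8.74 and 12.9 CPM in marker-rich spots, against 68.97, 56.2, 7.902 and 9.79 CPM in other spots. Apold1 differed by library in both kinds of spot and little between them. Among the glial genes, Apod differed by 1.43-fold (95% interval 1.35 to 1.51) and Sox10 by 1.93-fold (95% interval 1.405 to 2.695) between the highest and lowest library, against 6.79-fold (95% interval 6.22 to 7.42) for S100a5 and 11.8-fold (95% interval 9.28 to 15.3) for Serpina3n. Other genes of the glial list differed more than Apod and Sox10, Lgi4 by 4.74-fold, Cdh19 by 4.31-fold and Cryab by 2.46-fold, and the axon genes Gng13 and Gap43 differed by 2.97-fold and 1.17-fold. Which mouse gave which library is not known here, and these differences between libraries stand for no condition.

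The 10 genes whose ratio differed most between libraries were Gpnmb, Spp1, Pik3c2b, Galnt13, Calb1, Dok3, Cyp2g1, Tubb6, Stoml3 and Rassf4. Tubb6, a beta tubulin gene, was lower in marker-rich spots of libraries 1 and 2 and higher in those of libraries 3 and 4, with 6.399, 13.7, 38.5 and 24.6 CPM in marker-rich spots, against 30.6, 36.4, 22.6 and 13.8 CPM in other spots. Rassf4 had the same order, with ratios of 0.222, 0.541, 1.37 and 1.85. Calb1, the calbindin gene of periglomerular neurons, had ratios of 0.723, 2.45, 0.5902 and 0.261. Pik3c2b, Galnt13 and Dok3 rested on 1 to 2 UMIs in the marker-rich spots of the library with their lowest ratio.

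**Figure D5:**
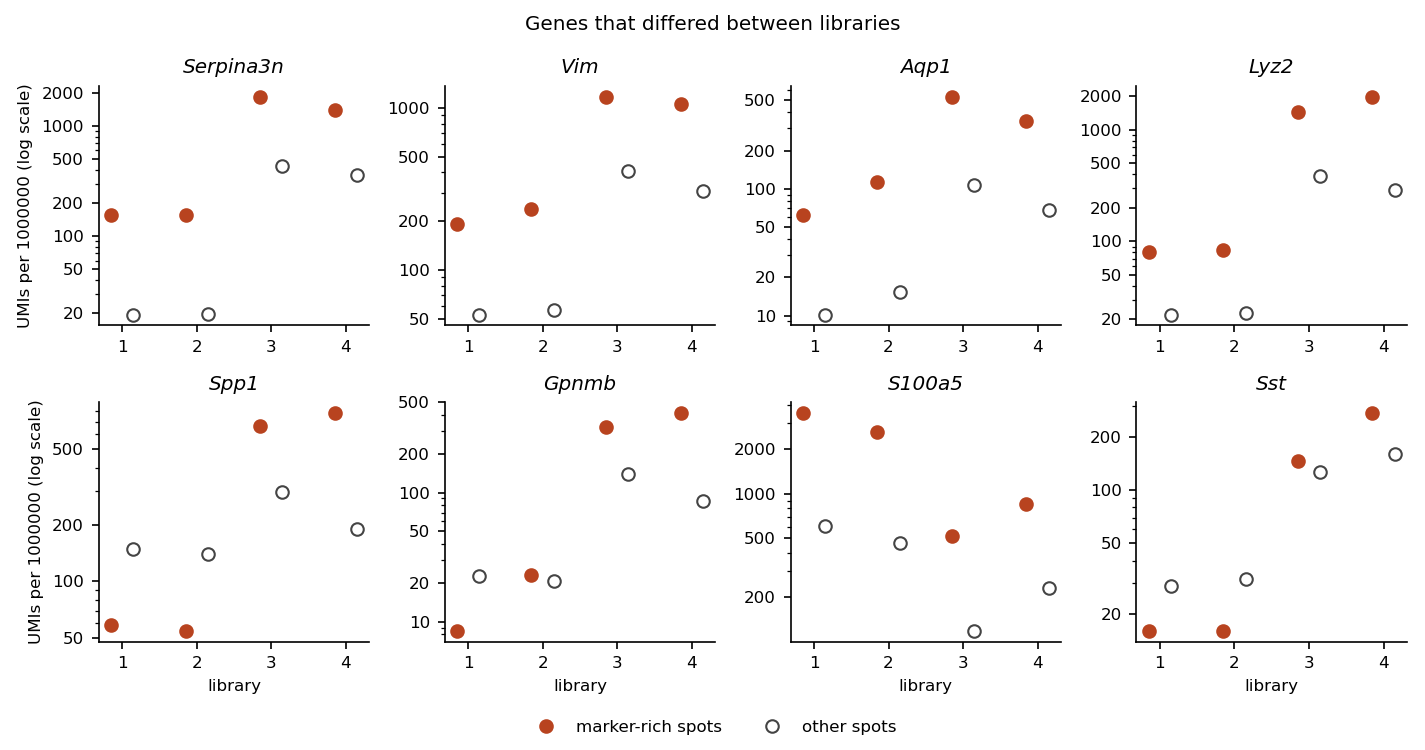
Levels of 8 genes in UMIs per 1000000 (log axes) in marker-rich spots (filled) and other spots (open) of each library. Serpina3n, Vim, Aqp1 and Lyz2 are higher in marker-rich spots of all 4 libraries, Spp1 and Gpnmb lie below the other spots in library 1 and above them in libraries 3 and 4, and S100a5 is lowest in library 3.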

How the data were processed

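Visium spatial RNA of fresh-frozen mouse olfactory bulb was deposited as 1 matrix of whole-number UMI counts per gene and spot. Per the file headers, Space Ranger 1.3.1 produced the deposited counts, and the submitters' processing notes name GRCm39 as the genome build. Other upstream steps were not stated. No normalization was applied before deposit, and no spatial positions or images were used.

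Libraries were taken from the number at the end of each barcode. Of 4713 spots, 97 under 500 UMIs were left out. UMIs were summed over the marker-rich and over the other spots of a library, scaled to CPM and compared as ratios. Levels have exact Poisson intervals and ratios exact conditional binomial (Clopper-Pearson) intervals at 95%, which cover counting error only. Log2 ratios use a total prior count of 1, shared in proportion to the UMIs of both sums. A gene was counted past the threshold at over 2-fold, among genes with at least 100 UMIs in each library. A gene list is summarised by the median log2 ratio of those of its genes that had 20 or more UMIs in the library, where 3 or more did. The 32 lists hold 310 genes. No doublet caller was run, because a spot holds several cells.

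Besides the list genes and the 5 markers, the genes named were the 20 with the highest smallest ratio over the 4 libraries, the 10 with the lowest highest ratio, the 10 whose log2 ratio differed most between libraries and the 15 with the widest ratio of libraries within marker-rich spots. Mitochondrial, ribosomal protein and unnamed genes were not ranked. Some genes that this rule or the lists name are not reported here. The score, its markers and the gene lists were chosen with earlier results of these data known. The planned comparison of mutant with control mouse was not run, because the library numbers match no label. The calculations were tested on simulated data. Python 3.11.15, numpy 2.4.6, scipy 1.17.1, pandas 2.3.3 and matplotlib 3.10.9 were used. Alternatives varied the share of spots taken, the markers in the score, the spots compared, the depth, the gene minimum and the libraries included.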

Additional observations from a re-analysis of the deposited data

How the results depend on the processing

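The count of 132 genes over 2-fold higher in marker-rich spots of all 4 libraries was 55 without Fabp7 in the score, 70 with the 5 markers weighted alike, 77 without spots in the top 10% for leptomeninges, and 20 of the 2632 genes left at 2000 UMIs per spot. It was 221 with a gene minimum of 50 UMIs, 51 with 200 UMIs, and 140 to 288 with 1 library left out. The count of 39 lower genes was 80 and 11 with the top 5% and 20% of spots, 1 without Fabp7, 77 without Npy, 5 with markers weighted alike, 62 against the lower 80% of spots, 90 with spots weighted alike, 19 without mucosa spots, 88 without Npy-led spots (chosen after seeing the data), and 57 to 90 with 1 library left out. The smallest axon median of -0.19 was 0.33 without Npy in the score and -0.19 to 1.21 with 1 library left out. The smallest reactive glia median of 1.48 was 1.83 against the lower 80% of spots and 1.48 to 1.78 with 1 library left out. The 970 genes that differed between libraries were 586 with the top 5% of spots, 239 at 2000 UMIs per spot, 2001 and 374 with minima of 50 and 200 UMIs, and 410 to 529 with 1 library left out. The gene minimum and thinning change how many genes are tested. With a library left out, the direction of the counts was fixed for the same genes. A count over all libraries cannot fall, and a count of differences between libraries cannot rise. For the other settings the cause was not tested. The smallest ensheathing glia median stayed between 1.15 and 1.97 in the 19 alternatives. Some of these could not move it. The gene minimum does not enter list medians, and leaving out a library changes a smallest median only if that library held it. This one came from library 2, so it stayed at 1.76 with other gene minima and without library 1, 3 or 4. Without library 2 it was 1.82. Of single values, the mucosa median of library 3 was -0.39 without Fabp7, and the ratio of Masp1 nearest to even was 0.36 on the log2 scale at 2000 UMIs per spot.

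No paired analysis was possible because the libraries match no sample label. With 1 mouse per condition and counts of single molecules, genes with few UMIs, such as Mybpc1, are limited by depth.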
